A study of Arabidopsis thaliana with 46 samples.

Results

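The comparison described here sets shoots of the Arabidopsis line SALK_070989 against shoots of the wild type Col-0, both grown on full medium without any nitrogen or dark treatment (called steady). SALK_070989 is a T-DNA insertion line of WRKY1, and it stands for 1 insertion event. The labels do not state whether the plants were homozygous. The 3 arrays of SALK_070989 steady and the 3 arrays of Col-0 steady belong to a study of 46 Affymetrix arrays in 16 groups of genotype and condition, 1 array per RNA sample. Seedlings of both genotypes were 14 days old, grew on plates with 0.1% sucrose under 16 h of light and 8 h of darkness at 22 °C, and were frozen 2 h into the light period. The labels also give 3 days of vernalization and a light intensity of 50 µmol per square metre and second. All groups used here share these settings. Other arrays used are SALK_070989 light and Col-0 light, untreated controls with Col-0 arrays of their own. From their titles, these are taken here as a separate experiment. Also used are the 2 other WRKY1 insertion lines SALK_016954 and SALK_136009 on the same full medium. SALK_070989 and Col-0 in 5 nitrogen and dark conditions complete the set. The labels do not tell whether replicates were separate cultures. The p-values below therefore reflect spread among arrays that could be technical.

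Members are all probe sets, other than array controls, with a mean above 4 (log2) in SALK_070989 steady or in Col-0 steady. They number 12483 of 22746, and 12033 of them exceeded 4 in both groups, 180 in SALK_070989 steady only and 270 in Col-0 steady only. Just inside this limit stood SWI3A, with means of 4.002 in SALK_070989 and 3.751 in Col-0, and just outside it AT4G01700, with 3.374 in SALK_070989 and 3.998 in Col-0. The annotation gives 1 gene name for 6629 members. The other 5854 entered every count without a name.

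WRKY proteins are plant transcription factors that bind W-box elements in promoters, and members of the family are best known from responses to pathogens and to abiotic stress. WRKY1 was studied here for links between light and nitrogen signalling. In leaves, nitrate and light are both needed for amino acid synthesis. Carbon or energy shortage turns on the breakdown of branched-chain amino acids through the SnRK1 kinase and S1-group bZIP factors, and repressors of the GARP family dampen the response to nitrate.

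The first question was whether the line carries less WRKY1 transcript. WRKY1 (AT2G04880, chromosome 2 from 1717833 to 1720526 in TAIR10.1) had levels of 2.37, 2.23 and 3.11 in the SALK_070989 arrays, against 7.45, 7.77 and 7.47 in the Col-0 arrays. The groups did not overlap, and the value of SALK_070989 replicate 2 was the lowest of the table, 2.23. The difference of -4.99 ± 0.19 (standard error, as after every ± below unless an SD is named) is therefore a lower bound on the loss. It had a limma adjusted p of 3e-20. A two-sided exact permutation test over the 6 arrays, 3 in each group, returned p = 0.1, which is the smallest possible here. Where the probes lie relative to the insertion is not stated in the labels.

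Transcripts of genes beside WRKY1 were then read, since an insertion can alter its surroundings. Of the 30 nearest annotated genes, 15 on each side, 10 had a tested probe set and 0 were called by limma at an adjusted p under 0.05 (termed called from here on), 1 of them having an unadjusted p under 0.05. The next gene on the right, SCL21, a GRAS family regulator, differed by 0.06, and the one after it, AT2G04900, by 0.02. The furthest from 0 among the 10 was AT2G04795, at -0.47 (limma adjusted p = 0.081).

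Checks of tissue and array quality came next. The 6 measured leaf markers, genes of the photosystems and the Calvin cycle, averaged 12.6 to 13 per array in SALK_070989 and 12.9 to 13.06 in Col-0, and 0 were called by limma, with 1 at an unadjusted p under 0.05. Of 3 root markers, EXPA7 and EXPA18, expansins of root hairs, stood at the lowest value of 2.23 on all 6 arrays. PYK10, a beta-glucosidase of endoplasmic reticulum bodies, was at 11.63 to 11.67 in SALK_070989 and 11.56 to 11.68 in Col-0. Both flower markers lay at or below 2.33 on all 6 arrays. Of 2 seed markers the oleosin OLEO3 was at 2.24 on all 6 arrays, and M17 is described below. In RNA of whole shoots, fewer cells of a type and less RNA per cell cannot be told apart. SALK_070989 replicate 3 stood apart with an array median of 4.35, where the other 5 arrays had 4.53 to 4.59. Its GAPDH control was also more 3′-biased, 3.02 (3′ minus 5′ probe sets, log2) against 1.95 to 2.4 in the other 5. The main counts are also given without this array.

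In SALK_070989 steady 1784 of 14288 probe sets tested (12.5%) differed from Col-0 steady, 801 higher (5.61%) and 983 lower (6.88%). Among the members 1741 were called, 787 higher and 954 lower, and 43 calls fell on probe sets that are no members. Most calls were moderate, with a median size of 0.66 on the log2 scale. A change of at least 2-fold was seen for 343 called members (194 higher, 149 lower), and of at least 4-fold for 40 (25 higher, 15 lower). The arrays of the groups did not overlap for 1598 of the 1741 called members, and for 3297 of all 12483. The share of calls was alike on the 5 chromosomes, between 11.4% and 12.7% of named probe sets tested.

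The balance of higher and lower calls moved with scaling and with 1 array. Centring each array on its median gave 1044 higher and 704 lower, and a further quantile normalization 921 higher and 815 lower. Over the 954 lower members the median deviation from the Col-0 mean was -0.53, -0.51 and -0.8 in SALK_070989 replicates 1, 2 and 3. Over the 787 higher members it was 0.7, 0.77 and 0.67. Without replicate 3 there were 1201 calls, 721 higher and 480 lower. Of the 1741 called members 1082 were still called in the same direction, and of the 40 that changed at least 4-fold 39 were.

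The transcript that rose most among those with 1 gene name and separate arrays was AT3G62950, which encodes a glutaredoxin of the CC type, a plant group of small redox proteins. Its levels were 6.11, 6.3 and 6.07 in SALK_070989, against 3.44, 2.97 and 3.44 in Col-0, a difference of 2.88 ± 0.28 (limma adjusted p = 3.6e-09). AT3G62550 had 11.22, 11.43 and 11.08 in SALK_070989 and 8.44, 8.33 and 8.55 in Col-0. All SALK_070989 arrays of both genes lay above all Col-0 arrays by over 2 units. SIS, named for a serine-rich protein induced by salt, had 10.14, 10.08 and 9.90 in SALK_070989, against 7.14, 7.45 and 7.34 in Col-0. AT4G28703 had 6.39, 6.47 and 6.12 in SALK_070989 and 3.11, 3.96 and 3.9 in Col-0. WES1 (GH3.5), an enzyme that conjugates auxin and salicylic acid to amino acids, had 8.81, 8.44 and 8.31 in SALK_070989, against 6.49, 6.96 and 6.22 in Col-0. Its difference was 1.96 ± 0.22 (limma adjusted p = 5.4e-08).

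Of the 15 highest, the other 10 rose by 1.93 to 2.47. AT1G02660 (2.47 ± 0.25), AT1G33055 (2.39 ± 0.20), AT5G64190 (1.99 ± 0.22) and AT4G16000 (1.93 ± 0.20) were at low to middle levels in Col-0, with means of 3.31, 3.79, 3.41 and 4.57. AT4G27450 (2.28 ± 0.23), AT3G15450 (2.24 ± 0.24) and AT3G10020 (2.11 ± 0.26) started from higher Col-0 means of 8.38, 9.14 and 7.52. AT3G15630 (2.05 ± 0.28), AT3G19680 (2.04 ± 0.30) and AT2G25200 (1.95 ± 0.19) complete the group. Replicates were tight in most of these, with an SD in SALK_070989 of 0.03 for AT4G27450 and 0.02 for AT4G16000 (n = 3 each), and widest for AT3G19680, 0.57.

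Beside WRKY1, the deepest fall was that of AT4G12490, a gene of the lipid transfer protein family. It had levels of 5.01, 3.67 and 3.65 in SALK_070989, against 9.20, 7.22 and 8.04 in Col-0, a difference of -4.04 ± 0.58 (limma adjusted p = 4.5e-06). The groups were apart, as the rule for naming required, but the Col-0 arrays spread over almost 2 units. AT4G12500, the adjacent gene of the same family, had 2.82, 2.58 and 2.86 in SALK_070989 and 6.52, 4.46 and 4.24 in Col-0. These genes are close relatives, and whether their probes cross-react was not tested. Of the 44 probe sets named by rule in the comparisons, 0 carry the suffix that marks probes shared between genes.

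AT3G44450, whose product inhibits cryptochromes, the receptors of blue light, had 3.71, 4.52 and 4.2 in SALK_070989, against 7.22, 6.71 and 6.45 in Col-0. It fell by 2.65 ± 0.23 (limma adjusted p = 3.8e-10). AT5G15950, an S-adenosylmethionine decarboxylase gene of polyamine synthesis, had 8.47, 7.98 and 7.49 in SALK_070989, against 9.96, 10.20 and 9.90 in Col-0. AT5G64120, which encodes peroxidase 71, a secreted class III enzyme, had 5.79, 5.23 and 4.80 in SALK_070989 and 7.71, 6.76 and 7.06 in Col-0. In all of these the highest SALK_070989 array stayed below the lowest Col-0 array, as the rule for naming required.

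M17, a late embryogenesis abundant gene on the seed list, read 2.25, 2.25 and 2.23 in SALK_070989, at the lowest value of the table, against 5.39, 3.41 and 4.17 in Col-0. Its difference of -2.08 ± 0.28 is thus a lower bound that rests on a scattered Col-0 group (SD 1, n = 3). AT3G15310 was likewise near the lowest value in SALK_070989, with 2.46, 2.37 and 2.99, against 5.70, 5.36 and 4.19 in Col-0. Both genes were tested only because their Col-0 steady means, 4.32 for M17 and 5.08 for AT3G15310, are above 4. That group is part of the comparison, so the filter favoured a fall in these genes. The remaining 7 of the 15 lowest fell by 1.72 to 2.51, from AT5G42760 at -1.72 ± 0.27 to AT2G27420 at -2.51 ± 0.30. Of these 7, AT2G23540 and AT4G36430 had the largest standard errors, 0.47 and 0.44. In a fit to only the 6 arrays compared, AT4G12500 (adjusted p = 0.11) and M17 (adjusted p = 0.078) lost their calls. The other 28 of the 30 kept theirs in every alternative in which they were tested. M17, AT3G15310, AT5G20790 and AT5G64190 have no group mean above 6 and were not tested with the filter at 6. For M17 and AT3G15310 the alternatives do not support the call, since the filter let them in through Col-0 steady alone.

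**Figure D1:**
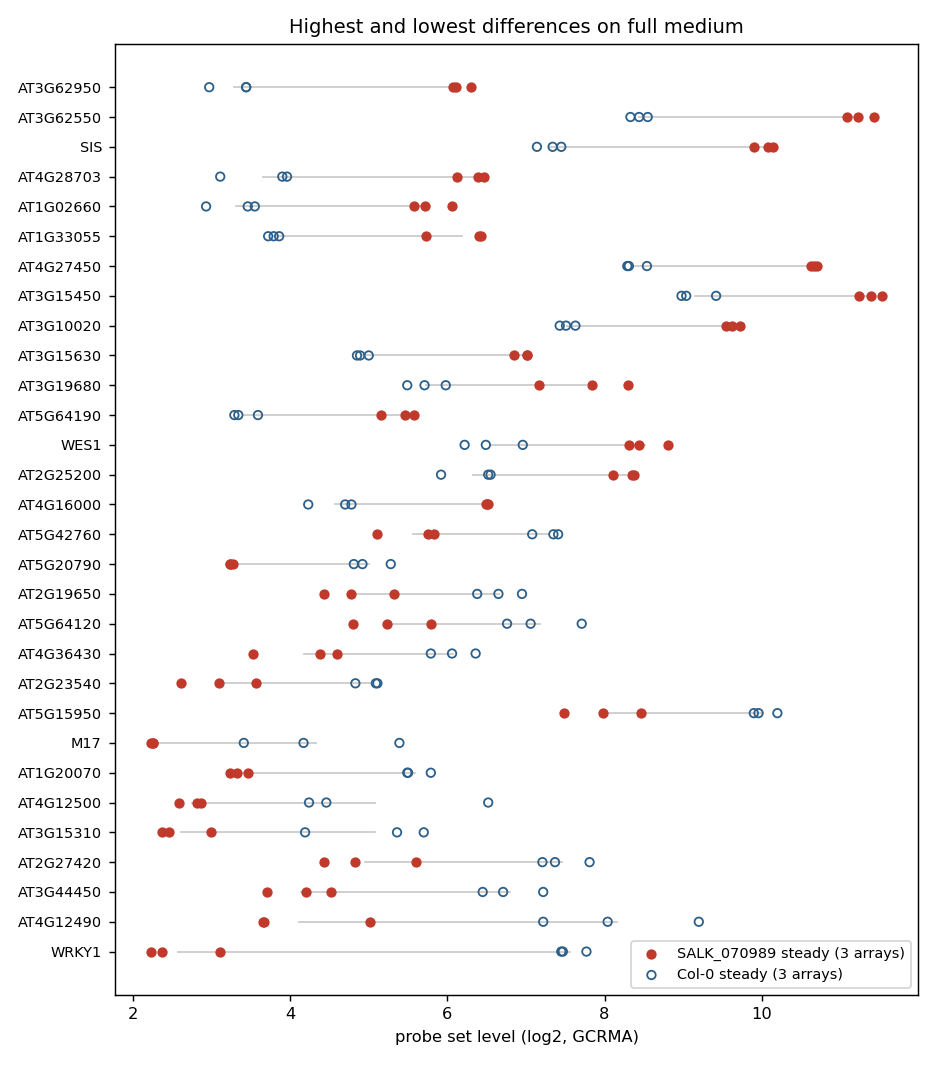
Level (log2, GCRMA) on each of the 3 SALK_070989 steady arrays (filled) and the 3 Col-0 steady arrays (open) for the 15 highest and 15 lowest named genes, ordered by their difference. Grey lines join the group means, and no gene has overlapping groups, as the rule for naming required. M17 and WRKY1 reach the lowest value of 2.23 in SALK_070989.

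Gene groups were read from lists of pathways and families, each described by the number of tested probe sets that rose or fell. Over all tests the median difference was -0.045, and 5.61% of probe sets were higher and 6.88% lower. The annotation covers only some members of each list, so a list stands for its measured genes alone.

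Genes of energy shortage rose in part. Of 8 measured genes known to respond to darkness or low energy, 5 were higher and 0 lower, with a median of 0.51. AKINBETA1, a regulatory subunit of the SnRK1 kinase, had 8.63, 8.54 and 8.46 in SALK_070989, against 7.02, 7.43 and 7.08 in Col-0. Its difference was 1.37 ± 0.17 (limma adjusted p = 2.8e-07). IVD, isovaleryl-CoA dehydrogenase of leucine breakdown, had 7.76, 7.77 and 7.77 in SALK_070989, against 7.06, 7.03 and 6.94 in Col-0. The subunits of methylcrotonyl-CoA carboxylase, MCCA (0.82 ± 0.17) and MCCB (0.46 ± 0.11), rose too, as did BZIP53, an S1-group bZIP factor (0.55 ± 0.12). PPDK (-0.32), D2HGDH (-0.14) and ETFQO (0.09) were not called. In the list of branched-chain amino acid, lysine and proline breakdown, which also holds IVD, MCCA and MCCB, those 3 were the calls among 8 genes (median 0.2). Among 10 autophagy genes 1 rose, ATG8E (0.73 ± 0.19), and it lost its call without SALK_070989 replicate 2 (0.55, limma adjusted p = 0.065).

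Of 5 measured genes of the nitrate response, 2 rose and 0 fell (median 0.05), and both encode GARP-family repressors of nitrate signalling. AT1G25550 had 8.93, 8.88 and 8.75 in SALK_070989, against 7.40, 7.43 and 7.95 in Col-0, a difference of 1.26 ± 0.15 (limma adjusted p = 1.2e-07). AT1G68670 had 8.76, 8.89 and 8.73 in SALK_070989 and 7.77, 7.70 and 8.10 in Col-0. In both genes the SALK_070989 arrays lay close together and above all Col-0 arrays. The nitrate transporter gene NRT2.5 was near the lowest value in both groups, 2.29 in SALK_070989 and 2.24 in Col-0. Of 4 genes of nitrogen assimilation and recycling (median 0.29) 0 were called by limma, and 2 had an unadjusted p under 0.05.

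Auxin-responsive genes rose in part, 3 of 6 with 0 lower and a median of 0.68. Beside WES1 these were IAA29, a repressor of auxin responses that is induced in shade, and GH3.17, an auxin-conjugating enzyme. IAA29 had 5.35, 4.86 and 5.20 in SALK_070989, against 3.17, 3.19 and 3.26 in Col-0, a difference of 1.93 ± 0.26. GH3.17 rose by 0.93 ± 0.18, while GH3.3 (0.43), IAA18 (0.32) and GH3.9 (-0.15) were not called.

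Light signalling genes moved both ways, 1 higher and 2 lower of 5 (median -0.69). HYH, a bZIP factor of light signalling close to HY5, had 5.64, 6.19 and 5.93 in SALK_070989, against 7.23, 6.85 and 7.11 in Col-0. HAT2, a homeodomain gene of auxin and shade responses, rose by 0.84 ± 0.19. Its call was lost in a fit to only the 6 arrays compared (limma adjusted p = 0.057). AT3G52740, like AT3G44450 an inhibitor of cryptochromes, was at -0.69 ± 0.25 (limma adjusted p = 0.065). The gene of protochlorophyllide oxidoreductase B, PORB, an enzyme of chlorophyll synthesis that needs light, had 10.39, 10.63 and 10.45 in SALK_070989, against 8.78, 8.94 and 9.41 in Col-0. It was the single call among 9 genes of that pathway, whose median was 0. The other 8 lay between -0.25 and 0.16.

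The photosynthetic apparatus gave few calls, with none on the plastid-encoded probe sets. For the nuclear genes, 1 of 7 is near the 12.5% called over all tests. Of 7 nuclear photosystem and antenna genes 1 was lower, LHCB4.3 (-0.57 ± 0.17), a minor antenna protein. That call ended with the array medians aligned (-0.5, limma adjusted p = 0.07) and without SALK_070989 replicate 1 (-0.46, 0.12) or Col-0 replicate 1 (-0.42, 0.18). LHCB4.1, not called in the main fit, became a lower call without SALK_070989 replicate 1 (-0.65, limma adjusted p = 0.0042) or replicate 2 (-0.56, 0.027). Of 66 plastid-encoded probe sets (median 0.05) 0 were called by limma and 0 had an unadjusted p under 0.05. The 3 Calvin cycle genes SBPASE, RCA and PRK lay at -0.19, -0.07 and -0.1.

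Genes of defence compounds and pigments fell in part. Of 5 measured glucosinolate genes 3 were lower and 0 higher (median -0.73). UGT74B1, the glucosyltransferase of the core pathway, had 8.30, 8.33 and 7.98 in SALK_070989, against 9.20, 8.97 and 9.09 in Col-0, and fell by 0.88 ± 0.14 (limma adjusted p = 2.7e-05). AOP1 (-0.73 ± 0.15), of a gene family of side chain modification, and GTR1 (-0.96 ± 0.25), a glucosinolate transporter, fell as well. Of 5 flavonoid genes 3 were lower (median -0.74). These were the flavonol glycosyltransferases UGT78D1 (-0.86 ± 0.20) and UGT78D2 (-0.74 ± 0.19), and CHIL, a chalcone isomerase-like protein (-0.68 ± 0.19), whose arrays overlapped between groups.

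Sugar transporters and starch genes also fell in part. Of 10 sugar transport genes 3 were lower and 0 higher (median -0.24). SAG29, a senescence-associated SWEET transporter, had 6.38, 6.81 and 6.18 in SALK_070989, against 8.18, 7.89 and 8.07 in Col-0. SWEET11, a sucrose exporter of the leaf phloem, was at 10.32, 10.27 and 10.02 in SALK_070989 and 10.82, 10.69 and 10.63 in Col-0. SWEET1 fell by 0.55 ± 0.14. Of 4 starch genes 2 fell, QQS (-1 ± 0.24), a gene linked to starch content, and APL3 (-0.69 ± 0.21), a subunit of ADP-glucose pyrophosphorylase.

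Several of these falls turn on SALK_070989 replicate 3, the array with the 3′ bias. Without it, GTR1 stood at -0.87 (limma adjusted p = 0.054), UGT78D2 at -0.61 (0.063), CHIL at -0.43 (0.2), SWEET1 at -0.48 (0.053), SWEET11 at -0.41 (0.08) and APL3 at -0.45 (0.25). UGT74B1, AOP1, UGT78D1, SAG29 and QQS kept their calls there. The flavonoid and the sugar transport list then each had 1 lower gene, while the 5 higher genes of low energy and the 3 of auxin response kept their counts. In a fit to only the steady arrays of SALK_070989 and Col-0, AOP1 (limma adjusted p = 0.084) and UGT78D1 (0.15) lost their calls. UGT74B1, SAG29 and QQS did not. Among the low-energy genes, MCCA (0.058) and MCCB (0.087) lost theirs in that fit. Single arrays other than SALK_070989 replicate 3 also ended calls. CHIL lost its call without Col-0 replicate 1 (-0.5, 0.13), SWEET1 without Col-0 replicate 3 (-0.47, 0.05), SWEET11 without Col-0 replicate 1 (-0.45, 0.055) and APL3 without Col-0 replicate 1 or 2 (-0.64 and -0.66, adjusted p = 0.093 and 0.079).

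Families moved in both directions. Of 15 glutaredoxin genes 5 rose and 2 fell (median 0.47). Beside AT3G62950, its relatives AT2G47880 (1.05 ± 0.25), AT3G62930 (0.88 ± 0.18), AT4G15690 (0.76 ± 0.19) and AT5G18600 (0.51 ± 0.11) rose, and AT1G06830 (-1.55 ± 0.29) and GRXC2 (-0.43 ± 0.09) fell. Of 10 bZIP factors 3 rose and 3 fell, from BZIP34 (1.27 ± 0.26) and BZIP61 (1.15 ± 0.21) to HYH (-1.14 ± 0.19). Of 33 UDP-glycosyltransferases 4 rose and 6 fell, with UGT73B1 (1.04 ± 0.23) and UGT74B1 at the ends. Without SALK_070989 replicate 3 only 3 of them fell, and without SALK_070989 replicate 2 only 2 rose. Of 14 serine carboxypeptidase-like genes 1 rose and 3 fell, with scpl48 (-0.93 ± 0.18) and scpl46 (-0.92 ± 0.20) lowest. The count of 1 that rose was 0 without SALK_070989 replicate 1 or 2 or Col-0 replicate 1 or 3. In a fit to only the 6 arrays compared, BZIP34 (adjusted p = 0.13), UGT73B1 (0.2), scpl48 (0.09) and scpl46 (0.16) lost their calls. The glutaredoxins AT1G06830 (0.08), GRXC2 (0.11) and AT3G62930 (0.065) lost theirs there too. The WRKY family had 6 tested genes, of which WRKY22, a factor of immune signalling, rose (4.52, 4.45 and 4.35 in SALK_070989, against 3.09, 3.12 and 2.99 in Col-0) and WRKY1 fell.

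Single members of small lists also changed. BHLH101, a regulator of iron uptake, rose by 1.45 ± 0.21 (6.86, 7.37 and 6.41 in SALK_070989, against 4.90, 5.81 and 5.58 in Col-0). Its call was lost in a fit to only the 6 arrays compared (limma adjusted p = 0.074). TET8, a tetraspanin of extracellular vesicles, rose by 0.77 ± 0.14, UBC16, a ubiquitin-conjugating enzyme, by 0.84 ± 0.14, and EXGT-A3, a xyloglucan endotransglucosylase, by 0.75 ± 0.13. The gibberellin receptor gene GID1A rose by 0.66 ± 0.17, but not past the threshold without Col-0 replicate 1 (0.56, limma adjusted p = 0.058). Hsp70-2, a chaperone, fell by 0.89 ± 0.22. In the lists of jasmonate (3 genes), salicylate and immunity (3), sulfur assimilation (3), lignin synthesis (4) and expansins (11), limma called 0 genes, and at an unadjusted p under 0.05 there were 1, 1, 0, 1 and 1.

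**Figure D2:**
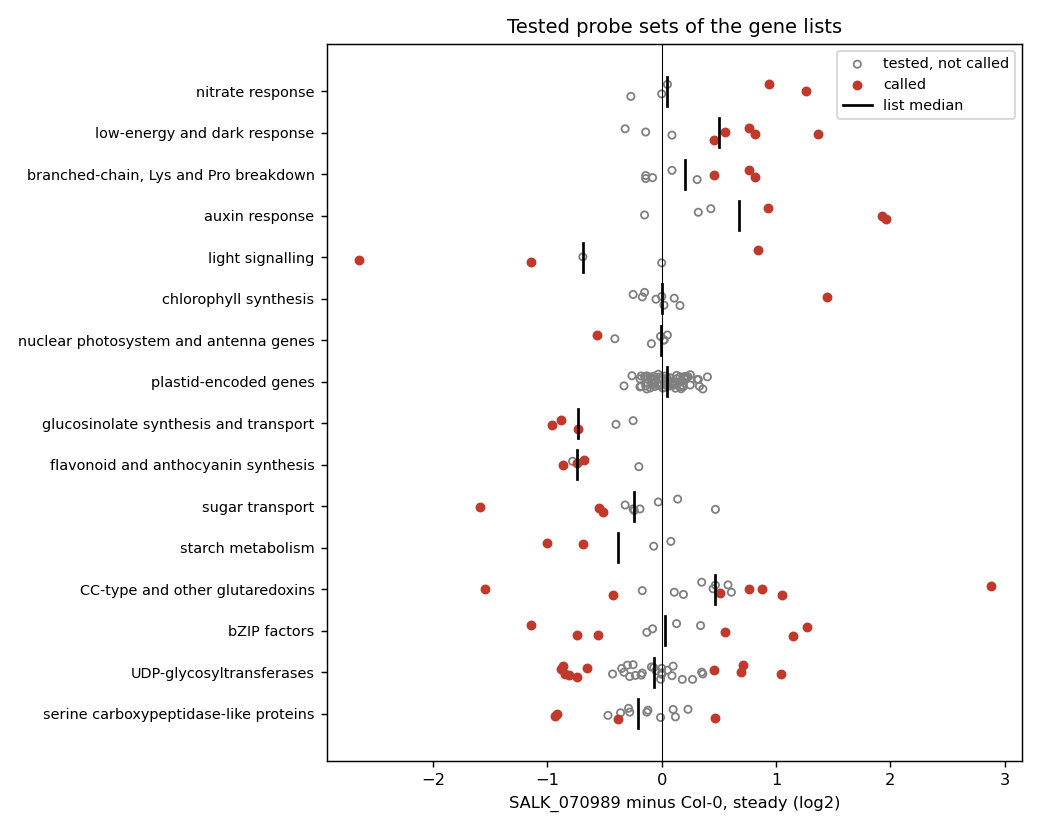
Difference SALK_070989 steady minus Col-0 steady (log2) of the tested probe sets of 16 gene lists, with called ones filled and the list median as a bar. Low-energy and auxin response genes have called members on the higher side only, glucosinolate, flavonoid and sugar transport genes on the lower side only, and the 66 plastid-encoded probe sets stay uncalled around 0.

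The labels describe the same growth and harvest for the light controls of another experiment, which have their own Col-0 arrays. They show how far the genotype difference returns on other arrays. There SALK_070989 light differed from Col-0 light at 802 of 14288 probe sets (5.61%), 545 higher and 257 lower. Of the 1741 members called in steady, 1596 (91.7%) had the same sign in light, where 71% of all members had. Called in light in the same direction were 496 (28.5%), and in the opposite direction 5. Of the calls in light, 62.3% were called in steady in the same direction. Across the 12483 members, which share arrays and are not independent, the differences correlated at r = 0.677.

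The size of a difference in steady and in light depends on which condition chose the members. Members called higher in steady had a median difference of 0.71 in steady and 0.4 in light, and members called lower in steady -0.61 in steady and -0.28 in light. The 517 members called higher in light had a median of 0.59 in steady and 0.73 in light, and the 248 called lower in light -0.69 in steady and -0.66 in light. No order of the conditions is read from these medians. AT3G62550 differed by 2.81 in steady and 1.95 in light, AT4G28703 by 2.67 and 2.09, and AT2G27420 by -2.51 and -2.07. AT3G19680 was at 2.04 in steady and 2.37 in light, and WRKY1 at -4.99 in steady and -5.39 in light. AT4G12490 differed by -4.04 in steady and by -0.78 in light (limma adjusted p = 0.56). Among the lists, 4 of the 8 low-energy genes were called higher in light with a median of 0.44, and 2 of the 6 auxin response genes with a median of 0.44. Of 5 glucosinolate genes 1 was lower in light, UGT74B1 (-0.64, limma adjusted p = 0.0036), and 0 of 5 flavonoid genes by the same test, 3 of which had an unadjusted p under 0.05.

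A test of the difference itself, the genotype difference in steady minus that in light, called 67 probe sets (0.469%), 45 above 0 and 22 below, of which 64 were members. At an unadjusted p under 0.05 there were 1068. The clearest was AT2G29300, with 7.41, 8.12 and 8.21 in SALK_070989 steady, against 6.12, 5.58 and 6.45 in Col-0 steady. Its means in light were 7.51 in SALK_070989 and 7.63 in Col-0, and the differences of 1.87 in steady and -0.13 in light were 1.99 ± 0.29 apart (limma adjusted p = 0.00031). M17 differed by -2.08 in steady and 0.47 in light, a gap of -2.56 ± 0.39 (limma adjusted p = 0.00068). AT1G59710 differed by -0.27 in steady, where it was not called, and by 0.96 in light, a gap of -1.23 ± 0.16. These 3 kept their calls in every alternative in which they were tested. M17 was tested only because its Col-0 steady mean, 4.32, is above 4. That group is part of this test, so the alternatives do not support its call.

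The untreated groups of 1 genotype also differed between the experiments. SALK_070989 steady and SALK_070989 light differed at 437 probe sets, 71 of them by at least 2-fold. Col-0 steady and Col-0 light differed at 642, 100 of them by at least 2-fold. Of the 64 members with a called gap, 20 differed between the SALK_070989 groups and 45 between the Col-0 groups. AT3G62950, with a gap of 1.76 ± 0.40, was at 6.16 in SALK_070989 steady and 7.03 in SALK_070989 light, and at 3.28 in Col-0 steady and 5.91 in Col-0 light. AT3G15450, with a gap of 1.47 ± 0.34, was at 11.39 in SALK_070989 steady and 11.56 in SALK_070989 light, and at 9.14 in Col-0 steady and 10.79 in Col-0 light. What sets the experiments apart was not tested.

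**Figure D3:**
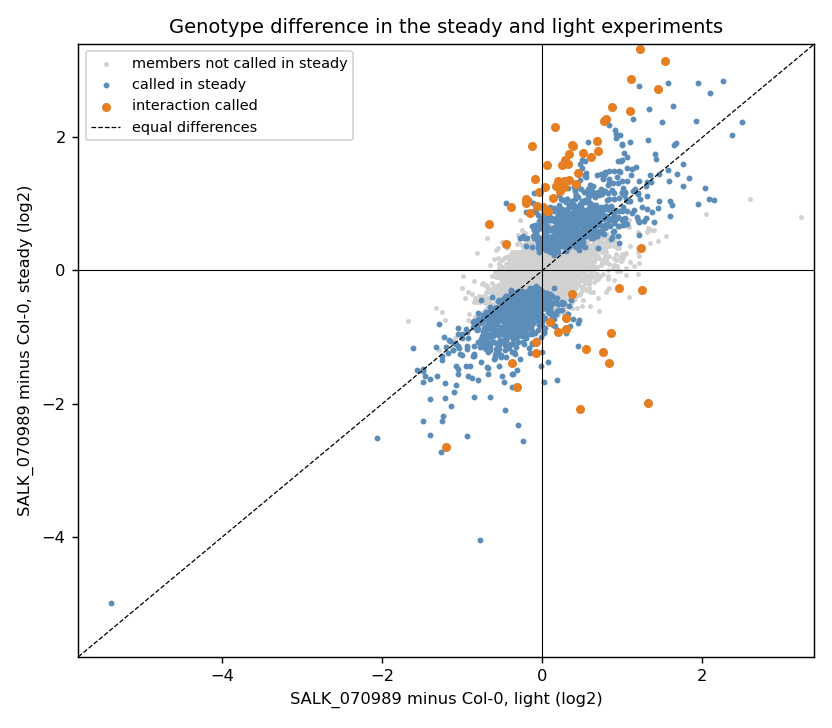
Genotype difference (SALK_070989 minus Col-0, log2) of the 12483 members in steady, vertical, against that in light, horizontal. Members called in steady are blue, those with a called gap between steady and light orange, and the dashed line marks equal differences. Most called members lie on the same side of 0 in both, and WRKY1 stands alone at the lower left.

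The same members were then followed in the 5 other conditions, each with its own Col-0 arrays. Of all 14288 probe sets tested, SALK_070989 differed from Col-0 at 1146 in N-absent, 393 in N-rich and 372 in dark. It differed at 2871 in dark N-absent and at 742 in dark N-rich. The medians below follow only members called in steady, so they do not measure the genotype difference on other probe sets. For the 787 higher members the median difference was -0.06 in N-absent, -0.03 in N-rich, -0.01 in dark, 0.23 in dark N-absent and -0.12 in dark N-rich. For the 954 lower members it was -0.05, -0.02, -0.02, -0.17 and -0.02 in the same order. The sign matched that in steady for 50.5% of called members in N-absent, 49.8% in N-rich, 51.1% in dark and 42.5% in dark N-rich. Of all members it matched for 47.3%, 48.7%, 51.4% and 47.3% in the same order. In dark N-absent, where Col-0 has only 2 arrays, it matched for 73.2%, against 56.6% of all members.

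The 15 highest genes followed this pattern, though they and the 14 lowest were chosen by their steady values. Their median difference was 2.24 in steady and 1.11 in light, and -0.1 in N-absent, -0.06 in N-rich, -0.06 in dark, 0.61 in dark N-absent and -0.19 in dark N-rich. AT4G28703 was above 0 in all 7 conditions, at 1.43 in N-absent and 0.34 in dark. AT4G27450 was below 0 in N-absent (-0.99) and N-rich (-1.13). The 14 lowest genes other than WRKY1 had a median of -2.06 in steady and -1.01 in light, and between -0.35 and -0.01 in the 5 other conditions. AT4G12490 was below 0 in all 7 conditions, at -2.13 in dark N-absent and -0.01 in dark. AT1G20070 was above 0 in N-absent (1.01) and dark N-rich (0.8).

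**Figure D4:**
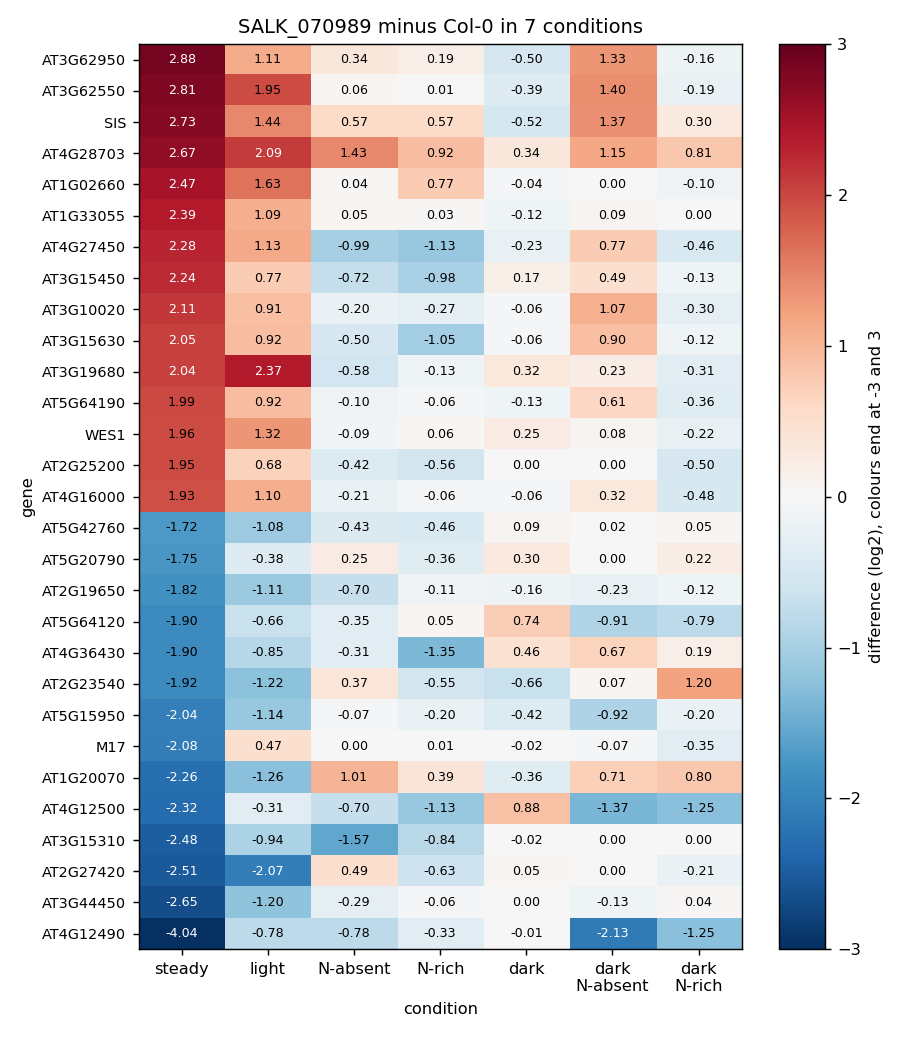
Difference SALK_070989 minus Col-0 (log2) of the 15 highest and, below them, the 14 lowest named genes other than WRKY1 in 7 conditions, each set against Col-0 of the same condition. Red is higher and blue lower in SALK_070989. The steady and light columns hold most of the strong colours, and the N-absent, N-rich and dark columns are mostly near 0. The genes were chosen by their steady values.

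SALK_016954 and SALK_136009 share their Col-0 arrays with SALK_070989, so the differences of the lines are given side by side only. The genes were also chosen by their SALK_070989 difference, which favours larger values in that line. No order of the lines is read from these values. The 15 highest genes differed from Col-0 by 1.93 to 2.88 in SALK_070989 (median 2.24), by 1.06 to 1.91 in SALK_016954 (median 1.51) and by 1.17 to 2.68 in SALK_136009 (median 1.89). The 14 lowest other than WRKY1 had medians of -2.06, -1.08 and -1.44 in the same order of lines. AT2G23540 and AT4G36430 were exceptions, with -1.92 and -1.9 in SALK_070989, -0.06 and -0.07 in SALK_016954, and 0.56 and 0.24 in SALK_136009.

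Direct contrasts between lines leave Col-0 out. WRKY1 itself had steady means of 2.57 in SALK_070989, 2.26 in SALK_016954 and 4.22 in SALK_136009. It was 1.65 ± 0.19 lower in SALK_070989 than in SALK_136009 (limma adjusted p = 3.2e-06). Against SALK_016954 it was not called (0.31 ± 0.19, limma adjusted p = 0.4), with both means near the lowest value. SALK_070989 steady differed from SALK_016954 steady at 495 probe sets (3.46%), 156 higher and 339 lower, and from SALK_136009 steady at 198 (1.39%), 24 higher and 174 lower. Members called in the same direction against Col-0 and against both lines numbered 80 of 12483, 14 higher and 66 lower, which is 4.6% of the called members. All 3 contrasts use the same 3 SALK_070989 arrays, so their agreement is not independent. Of the 80, 12 differed at least 2-fold in all 3 contrasts. These counts lean on single arrays. The 80 became 24 without SALK_070989 replicate 3 and 138 without SALK_070989 replicate 2. The 495 became 203 without SALK_070989 replicate 3, and 102 and 274 without SALK_016954 replicates 2 and 3. The 198 became 66 without SALK_070989 replicate 3 and 37 without SALK_136009 replicate 2.

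Of the 10 genes named for these contrasts, AT4G20300 had the smallest adjusted p against both lines. It lies on chromosome 4 (10955311 to 10959239 in TAIR10.1), away from WRKY1. Its levels were 4.99, 5.49 and 5.30 in SALK_070989 steady, 6.99, 6.75 and 6.79 in SALK_016954 steady, 6.52 to 6.96 in SALK_136009 steady, and 6.8 to 7.1 in Col-0 steady. Its difference was -1.58 ± 0.14 against SALK_016954 (limma adjusted p = 3.1e-09), -1.53 ± 0.14 against SALK_136009 (8.1e-09) and -1.67 ± 0.14 against Col-0 (1.4e-10). Among the 10 it alone kept its calls against both lines in every alternative run. Over all conditions its 21 SALK_070989 arrays lay between 4.82 and 5.51 and the 25 arrays of Col-0 and the other lines between 5.68 and 7.1. The SALK_070989 minus Col-0 difference was -1.49 in light, -1.11 in N-absent, -0.54 in N-rich, -1.23 in dark, -1.84 in dark N-absent and -1.13 in dark N-rich.

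The other genes lower than in both lines were more scattered. AT4G38080 had 3.18, 3.64 and 3.09 in SALK_070989, against 4.89, 5.32 and 5.19 in SALK_016954, and differed by -1.83 ± 0.35 there and by -2.69 ± 0.35 from SALK_136009. AT2G23540, AT4G36430 and AT5G09480 had standard errors of 0.47, 0.44 and 0.39 in these contrasts. Without SALK_070989 replicate 3 all of these 3 lost their call against SALK_016954 (adjusted p = 0.12, 0.11 and 0.13), and AT4G36430 lost that against SALK_136009 too (-1.82, 0.071). Without SALK_136009 replicate 2, AT2G23540 (-2.02, 0.075) and AT5G09480 (-1.66, 0.063) lost theirs against that line.

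The genes higher than in both lines differed by less. AT3G59110 had 7.30, 7.28 and 7.23 in SALK_070989, against 6.54, 6.28 and 6.44 in SALK_016954, and was 0.85 ± 0.16 higher there and 0.7 ± 0.16 higher than in SALK_136009. AT3G57800 had 7.56, 7.14 and 7.15 in SALK_070989 and 6.45, 6.61 and 6.76 in SALK_016954. AT2G35170, AT1G09575 and AT1G68400 differed by 0.62 to 0.77 from each line. All 5 lost the call against SALK_136009 when SALK_136009 replicate 2 was left out (adjusted p between 0.091 and 0.34). Over all alternatives they kept it in 7 of 12 for AT2G35170, and of 13 in 9 for AT3G59110, 6 for AT1G09575, 6 for AT1G68400 and 10 for AT3G57800.

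**Figure D5:**
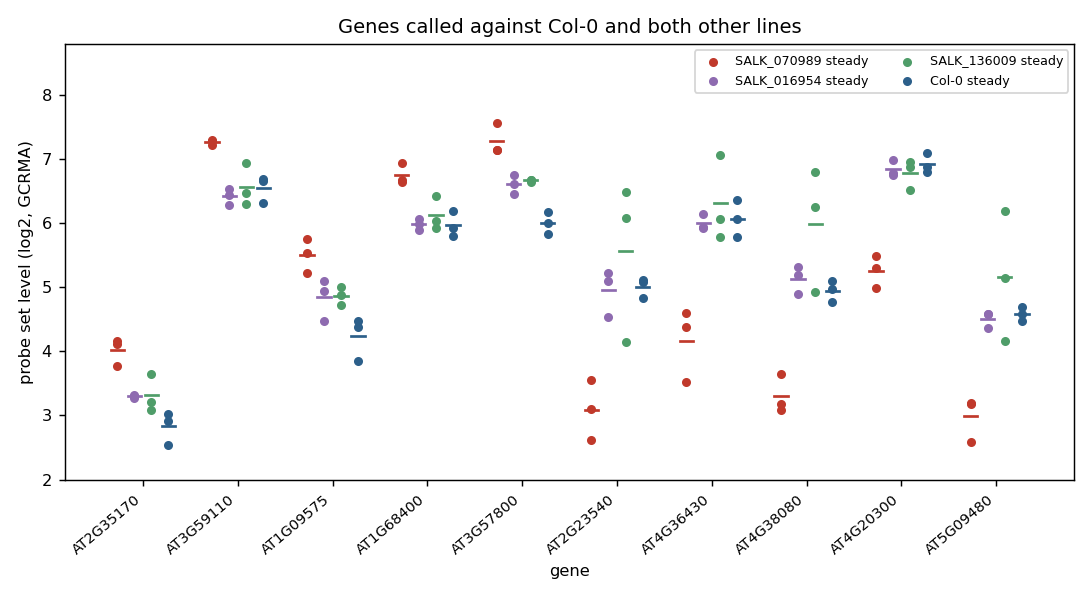
Level (log2, GCRMA) on each steady array of SALK_070989, SALK_016954, SALK_136009 and Col-0 for the 5 genes higher and the 5 genes lower in SALK_070989 than in all other groups, with bars at the group means. AT4G20300 has tight groups, with SALK_070989 at 4.99 to 5.49, while AT2G23540, AT4G38080 and AT5G09480 spread widely in SALK_136009.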

How the data were processed

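The authors deposited 1 table of log2 probe set values for 46 ATH1 arrays of shoot RNA. Per the submitters' processing notes, GCRMA was used. That the scale is log2 was inferred from the range of 2.23 to 14.63. Probe sets without signal end near 1 value, and 26.4% of values lay within 0.01 of the lowest, so differences against such a group are lower bounds. Normalization over arrays would hide a change of most transcripts in 1 direction. The number of arrays limits the precision.

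The table has 22810 probe sets, 64 of them controls. The 14288 with a mean above 4 in any of the 16 groups were tested with limma 3.58.1 in R 4.3.3, as contrasts of 16 group means over all arrays (residual degrees of freedom 30, prior 4.97), with eBayes and Benjamini-Hochberg adjustment over the 14288 at a threshold of 0.05. The contrasts were SALK_070989 steady minus Col-0 steady, the same in the other conditions, its difference from light, and SALK_070989 minus each other line. Names came from the platform annotation, and 13484 probe sets with 1 gene matched the TAIR10.1 gene table. The probe set of AT2G04880, listed as ZAP1, is called WRKY1 after the study's title.

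Named were the 15 highest and 15 lowest called members with 1 gene and arrays that do not overlap, up to 4 genes per list by adjusted p (further list members follow for completeness and were chosen after their values were seen), 5 per direction for the interaction and for calls against both lines, and WRKY1 and its neighbours. Members and lists were chosen with earlier results of these data known, and the marker lists hold genes of leaf, root, seed and flower. Replicate numbers did not consistently pair the steady arrays. Deviations from the group means correlated at -0.238, -0.271 and 0.157 between arrays of the same number. With arrays of other numbers the range was -0.218 to 0.367, 0.091 to 0.243 and -0.165 to 0.0506 for replicates 1, 2 and 3. Only for replicate 3 was the same number above the others. The fit was tested on simulated data. Alternatives were other filters, normalizations and eBayes settings, a replicate block, fits to fewer groups, and leaving out each array. Promoter motifs were not analysed here. Figures used python 3.11.15 and matplotlib 3.10.9.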

Additional observations from a re-analysis of the deposited data

Results flagged for a closer look

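For 14 named genes the test of the genotype difference in steady minus that in light passed the threshold (limma interaction contrast). Above 0 were AT2G29300 (1.99, adjusted p = 0.00031), AT3G62950 (1.76, 0.026), AT3G07350 (1.52, 0.046), AT2G20670 (1.51, 0.011) and AT3G15450 (1.47, 0.03). So were AT1G33055 (1.3, 0.022), SIS (1.29, 0.041), AT2G25200 (1.27, 0.016) and AT1G25550 (0.99, 0.015). Below 0 were M17 (-2.56, 0.00068), AT1G52200 (-1.73, 0.035), AT3G44450 (-1.46, 0.026), AT1G59710 (-1.23, 0.00011) and AT3G43670 (-1.18, 0.036). M17 was tested only because its Col-0 steady mean, 4.32, is above 4, so the alternatives do not support its call. AT2G29300, AT1G59710 and M17 kept the call in all 18, 18 and 17 alternatives run for them. AT2G20670 lost it in 2 of 18, AT2G25200 in 3, AT1G25550 in 5, AT3G62950 and AT3G44450 in 7, AT1G33055 and AT3G15450 in 9, AT1G52200 in 10, AT3G07350 and AT3G43670 in 11 and SIS in 12, with adjusted p of at most 0.19 and no change of sign. Most of these losses came from leaving out 1 array.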

How the results depend on the processing

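The 1784 calls were 645 in a fit to only the 6 arrays compared, where the spread is estimated from fewer arrays, and 1358 in a fit to the 4 steady groups. They were between 1620 and 1853 under the other settings and between 1201 and 1810 with 1 array left out. The replicate number as a block gave 1755 calls. It moved none of the counts in this paragraph by over 1.5 times, ended the call on LHCB4.3 (adjusted p = 0.052) and brought AT3G52740 past the threshold (0.045). It also ended the calls on the gap between steady and light of SIS (0.095), AT1G33055 (0.069), AT3G44450 (0.051) and AT1G52200 (0.058), and that of AT1G09575 against SALK_136009 (0.069). The numbers do not consistently pair the arrays. WRKY1 was called throughout, at -5.27 to -4.83 with 1 array left out. The calls in gene lists, 67 in all, became 29 in the fit to 6 arrays and 52 to 69 with 1 array left out. In a fit to the 4 steady groups, chosen after the data had been seen, the 495 calls against SALK_016954 became 125, the 198 against SALK_136009 became 33, and the 80 against Col-0 and both lines became 20. With 1 array left out these counts ranged from 102 to 725, from 37 to 264 and from 24 to 138. The 496 members called in steady and light were 273 without Col-0 light replicate 1, and 511 at most with 1 array left out. The 67 gaps between steady and light ranged from 27 to 85, with 27 without Col-0 light replicate 3, 31 without Col-0 steady replicate 1 and 44 without SALK_070989 light replicate 3. Under the alternatives run, 0 named genes reversed. The interaction and line results with the array medians aligned were also added after the data had been seen. Probe sets near the lowest value have only a bound.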
